A study of Mus musculus with 5 samples.

Results

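Interferon-induced genes are the genes that cells switch on when interferon binds its receptors, and 46 of them, out of 55487 genes in the deposited table, were followed here in macrophages of the atherosclerotic aorta. The 46 were taken by gene symbol from a list of the usual members of this programme, and the rule for membership used no measured value, although earlier results of these data were known when it was made. All 46 symbols were found in the table. Type I interferons bind a receptor made of *Ifnar1* and *Ifnar2*, and the signal passes through the kinases *Jak1* and *Tyk2* to a complex, ISGF3, of which *Stat2* and *Irf9* are subunits. ISGF3 binds a promoter element called the interferon-stimulated response element (ISRE), while interferon gamma acts at a different element, the gamma-activated site (GAS). The products sense foreign nucleic acid, block translation and virus entry, and attack vacuoles that hold microbes. In the plaque, macrophages with a high level of these genes form a known subset of inflammatory cells.

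The RNAseq compared 2 libraries labelled WT with 3 libraries labelled KO, all from males that were given a Western diet for 10 weeks after 8 weeks on chow. Per the study's methods, every mouse lacked *Apoe*, a deletion that the controls carried too. The WT mice had the floxed *Zeb1* allele without Cre (*Zeb1* WT/Apoe KO). The KO mice had lost *Zeb1* in myeloid cells through Cre expressed from the *Lyz2* locus (*Zeb1* ∆M/Apoe KO). Per the paper, this transcription factor activates or represses its targets, depending on its co-factors. Viable CD45+ F4/80+ cells were sorted from digested aortas (the methods add CD11b+), macrophages of 3 mice were mixed for a genotype, and cDNA was made with SMART-Seq v4, a kit that amplifies the RNA of very few cells. *Lyz2* is also active in neutrophils and monocytes, so this Cre is not particular to macrophages. The methods describe replicates as biologically independent, while the labels do not say which mice went into which library, so the p-values below measure the spread between these libraries.

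A library held between 20118545 and 50649912 counts. The lowest level taken as detected was more than 3 counts, which is between 0.0572 and 0.237 CPM (counts relative to the size of the library, adjusted by the TMM method of edgeR), and this floor covers counting error only, because amplified reads are not independent molecules. *Zeb1* itself had 0 counts in both WT libraries and 22, 0 and 0 in KO replicates 1, 2 and 3, so it did not check the labels, and WT and KO below are the names on the labels. KO replicate 1 stood apart: 16423 genes had over 3 counts there, against 5009 to 6931 in the other libraries, but only 870 reached 100 counts, against 1714 to 4421. Of 11 macrophage markers, 7 and 10 were detected in the WT libraries and 9, 10 and 9 in the KO libraries, and their summed level was 23100 and 31600 CPM in WT and 44400, 28700 and 27200 CPM in KO. The size of KO replicate 1 was multiplied by a TMM factor of 0.519, against 1.04 to 1.43 for the others, which raises its CPM. At 100 counts or more there were 7 and 10 markers in WT and 5, 9 and 9 in KO. Single markers were uneven: *Cd68* and *C1qa* had 0 counts each in WT replicate 1 and 10 and 5 in KO replicate 1, against 36172 to 77519 in the other 3 libraries, while *C1qb* was highest in KO replicate 1 (398502 counts, against 38760 to 232428) and *Lyz2* had 161607 to 869804 counts in all 5. In bulk libraries, fewer cells of a type and less RNA per cell cannot be told apart.

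No interferon-induced gene passed the test between genotypes. Of the 46 genes, 16 had too few counts for the filter, 30 entered edgeR's quasi-likelihood test, and 0 of these had a Benjamini-Hochberg adjusted p under 0.05, beside 0 of 7905 genes tested (0%). At an unadjusted p under 0.05 there were 2 of the 30, *Gm12250* and *Bst2*, and 86 of all genes tested. Among the 30, 15 had a higher and 15 a lower fitted level in KO, with a median log2 fold change (KO minus WT) of 0.19, whereas 60.9% of all genes tested were higher in KO, with a median of 0.78. The sign of the members' median and the share of all genes changed with the scaling, as given below. DESeq2 with its default options gave an adjusted p for 15 members and called 1, *Bst2*, while it called 12.2% of the 6497 genes to which it gave an adjusted p. The dispersion that edgeR estimated was 6.44, so replicates of a genotype differed widely. The description below therefore starts from the counts of each library.

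**Figure D1:**
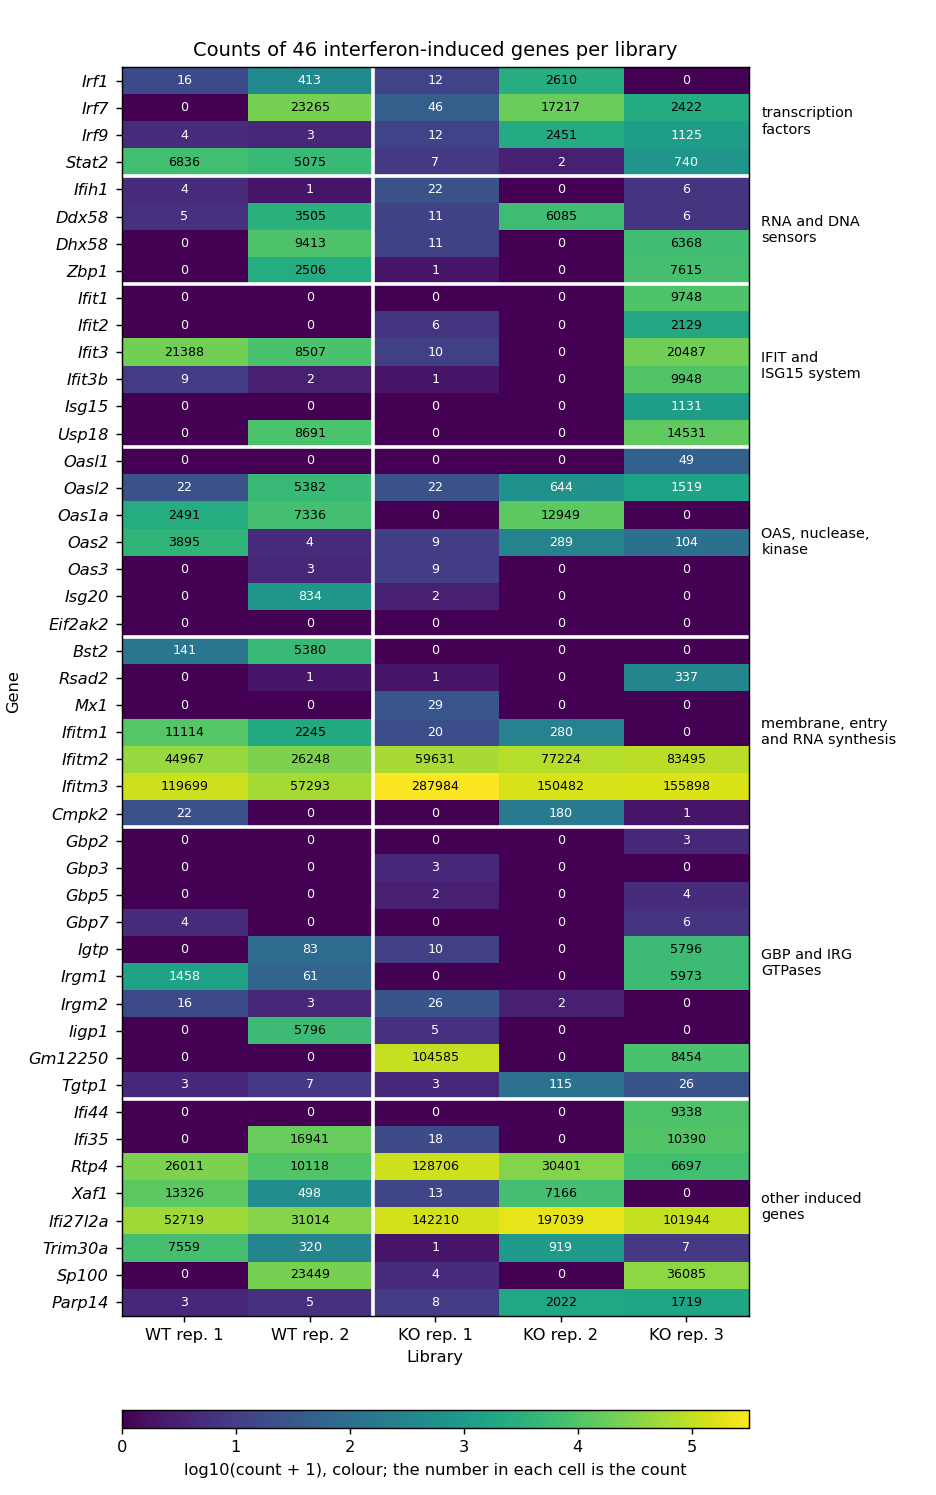
Counts of the 46 interferon-induced genes (rows, in groups by role) in the 2 WT and 3 KO libraries (columns). Colour is log10(count + 1) and the number in each cell is the count. *Ifitm2*, *Ifitm3*, *Ifi27l2a* and *Rtp4* are high in all 5 libraries, and most other genes are high in some libraries and at 0 in others of the same genotype.

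Promoter stretches with the letters of these elements are shown first, as a feature that membership did not use. RefSeq promoter windows (GRCm38.p6, 250 bases before to 50 after each start site) were found for 37 of the 46 genes. Of their 45 windows, 31 had the last 50 bases within a transcript of the gene in GENCODE M21, the source of the gene coordinates. The stretch of *Gm12250* lies upstream of that gene as annotated there, which starts at chr11:58187739. An ISRE-like match, GAAANNGAAA on either strand, lay in the windows of 24 of these 37 genes (64.9%), against 1079 of all 27025 genes with a window (3.99%). A GAS-like match, TTCNNNGAA, lay in 14 of the 37 (37.8%), against 9.55% of all genes, 10 members had both and 9 had neither, and the 2 patterns can overlap each other. In the stretches printed next, read 5′ to 3′ on the gene's strand, the capitals mark the ISRE-like match. They stand for the group's range of behaviour: *Ifitm2* was high in every library, *Stat2* and *Bst2* were lower in every KO library, *Ifit1* and *Isg15* were counted in KO replicate 3 alone, *Ifit3* and *Ifit3b* carry the same stretch, *Gm12250* had the lowest p, and *Gbp2* was not detected.
*Ifitm2*, chr7:140955988-140956017, minus strand: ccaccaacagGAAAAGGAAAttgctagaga
*Stat2*, chr10:128270266-128270295, plus strand: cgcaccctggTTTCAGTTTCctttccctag
*Bst2*, chr8:71537577-71537606, minus strand: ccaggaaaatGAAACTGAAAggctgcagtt
*Ifit1*, chr19:34640775-34640804, plus strand: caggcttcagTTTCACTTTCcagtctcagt
*Isg15*, chr4:156200871-156200900, minus strand: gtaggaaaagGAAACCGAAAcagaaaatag
*Ifit3*, chr19:34583363-34583392, plus strand: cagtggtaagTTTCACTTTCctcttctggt
*Ifit3b*, chr19:34607759-34607788, plus strand: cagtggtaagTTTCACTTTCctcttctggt
*Gm12250*, chr11:58183742-58183771, plus strand: cctcggtggcTTTCAGTTTCtatgcctaga
*Gbp2*, chr3:142620594-142620623, plus strand: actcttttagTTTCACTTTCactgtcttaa
A match is a description of the letters and not a bound site. Of the 24 members with a match, 16 reached 100 counts in at least 1 library and 8 in none, and of the 13 members whose window held no match, 12 did and 1 did not.

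How many members were present varied as widely among the KO libraries as among all libraries. Over 3 counts were found for 22 and 27 of the 46 genes in WT replicates 1 and 2, and for 26, 17 and 32 in KO replicates 1, 2 and 3. At 100 counts or more there were 13 and 22 genes in the WT libraries and 5, 17 and 25 in the KO libraries. As shares of the 46 these were 28.3 and 47.8% in WT and 10.9, 37 and 54.3% in KO. Of all genes tested, 20.2 and 48.4% reached that level in WT and 9.83, 36.7 and 46.7% in KO. The variation between libraries was thus not particular to the members. In KO replicate 1, 21 of the 26 detected members lay between 4 and 99 counts, the highest of them at 46, a band that in the same library held 15553 genes of the table. KO replicate 2 had no member in that band: 17 genes were at 100 counts or more and the other 29 had 3 counts or fewer, 27 of them 0.

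Few members were high throughout. At 100 counts or more, 4 of the 46 genes were present in all 5 libraries, 0 in 4, 9 in 3, 12 in 2, 11 in 1 and 10 in none. Among the 30 tested members, 13.3% were at that level in all 5 libraries and 3.33% in none, against 3.78% and 26.4% of all genes tested. KO replicate 3 was the only library with 7 of them, *Ifit1*, *Ifit2*, *Ifit3b*, *Isg15*, *Rsad2*, *Igtp* and *Ifi44*. Only 2 of these 7 were tested, which is 6.67% of the 30 tested members, against 8.15% of all genes tested with that pattern. WT replicate 2 alone had *Isg20* and *Iigp1*, KO replicate 2 alone had *Cmpk2* and *Tgtp1*, and WT replicate 1 and KO replicate 1 had none to themselves. The pair of libraries with the most members in common crossed the genotypes: WT replicate 2 and KO replicate 3 shared 13 (59.1% of the members high in the first and 52% of those high in the second), while the WT libraries shared 11 (84.6% and 50%). Those crossing libraries also had the most members at that level, 22 and 25. The larger number in common therefore does not show that their members were more alike, and the overlap over all genes was not worked out.

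**Figure D2:**
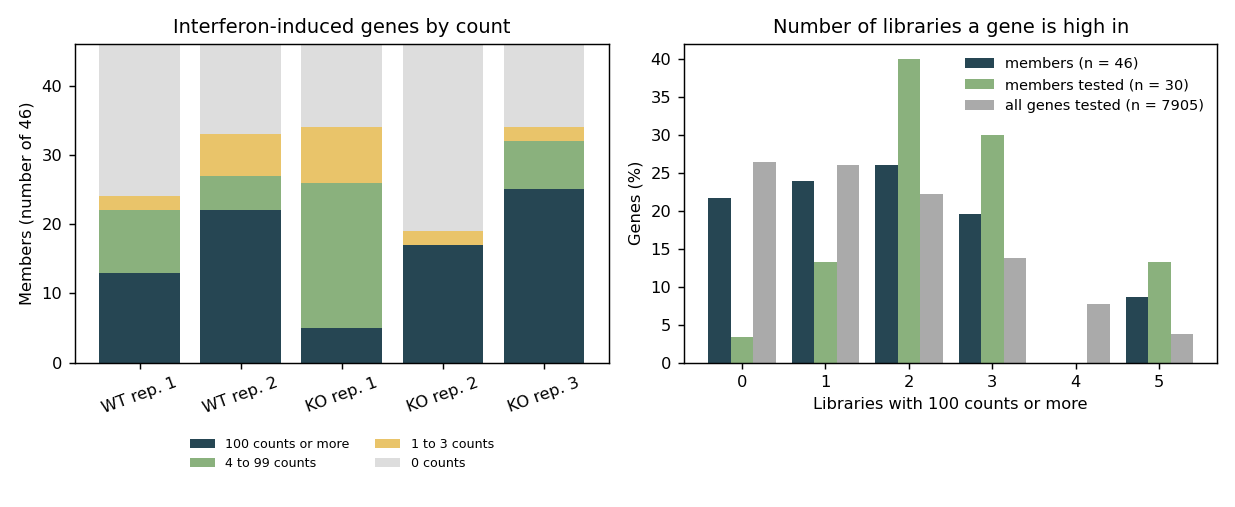
Left, the number of the 46 interferon-induced genes in each count band (stacked bars, from 100 counts or more down to 0) for each library. Right, the share of genes (%) by the number of libraries in which they reach 100 counts, for the 46 members (dark), the 30 members tested (green) and all 7905 genes tested (grey). KO replicate 1 has 5 members at 100 counts or more and KO replicate 3 has 25, and no member is high in exactly 4 libraries.

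Among the transcription factors, the subunits of ISGF3 lay on opposite sides in the genotypes. *Stat2*, the subunit that gives ISGF3 its activation domain (chr10:128270559-128292849), had 6836 and 5075 counts in the WT libraries and 7, 2 and 740 in the KO libraries. *Irf9*, the subunit of ISGF3 that binds DNA (chr14:55603571-55610030), had 4 and 3 counts in WT and 12, 2451 and 1125 in KO. The genotypes did not overlap for either gene, with *Stat2* lower and *Irf9* higher in every KO library. In CPM, *Stat2* was 189 ± 67.9 (SD, n = 2) in WT and 4.9 ± 7.98 (SD, n = 3) in KO, a log2 fold change of −5.27 (standard error 5.24), and *Irf9* was 0.111 ± 0.0391 and 25.8 ± 27.2, a log2 fold change of 7.81 (standard error 6.70). Neither difference passed the test (adjusted p = 1 for both), and the two-sided exact permutation test gave p = 0.2 for each, with 0.1 as the lowest p it can give for 2 against 3 libraries. Part of *Irf9* (123 exon bases) is shared on the same strand with *Rnf31*, which had 4 and 0 counts in WT and 20, 2213 and 10 in KO.

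*Irf7*, the factor that amplifies type I interferon production, had 0 and 23265 counts in WT and 46, 17217 and 2422 in KO. *Irf1*, a factor induced strongly by interferon gamma, had 16 and 413 counts in WT and 12, 2610 and 0 in KO. Both overlapped between genotypes, and each was at 46 counts or fewer in at least 1 library of each genotype.

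The cytosolic sensors of foreign nucleic acid were on in WT replicate 2 and in different KO libraries. *Ddx58*, which encodes RIG-I, had 5 and 3505 counts in WT and 11, 6085 and 6 in KO. Its CPM was 48.8 ± 68.8 (SD, n = 2) in WT and 45.8 ± 78.4 (SD, n = 3) in KO, and its log2 fold change was −0.09 (standard error 4.90; edgeR adjusted p = 1), with a sign that changed with the scaling. *Dhx58*, which encodes the related regulator LGP2, had 0 and 9413 counts in WT and 11, 0 and 6368 in KO. *Zbp1*, a sensor of Z-form nucleic acid that triggers cell death, had 0 and 2506 counts in WT and 1, 0 and 7615 in KO. *Ifih1*, which encodes MDA5, stayed low everywhere, with 4 and 1 counts in WT and 22, 0 and 6 in KO.

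Of the IFIT genes, whose products bind foreign RNA and stop its translation, *Ifit1*, *Ifit2* and *Ifit3b* had nearly all their counts in 1 library, whereas the sum of all 4 genes was 742 and 237 CPM in WT and 1.34, 0 and 807 CPM in KO, with WT replicate 1 above KO replicate 3 when totals alone scale the counts (1064 against 835.4). *Ifit1* had 9748 counts in KO replicate 3 and 0 in the other 4. *Ifit2* had 2129 counts in KO replicate 3, 6 in KO replicate 1 and 0 in the rest. *Isg15*, the ubiquitin-like protein that is joined to other proteins during the response, had 1131 counts in KO replicate 3 and 0 elsewhere. The 6 genes of the IFIT and ISG15 system summed to 742.1 and 478.1 CPM in WT, from *Ifit3* in the first and from *Ifit3* and *Usp18* in the second, and to 1.344, 0 and 1105 CPM in KO.

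*Ifit3*, which encodes a partner that stabilises IFIT1, differed from its neighbours on the chromosome, with 21388 and 8507 counts in WT and 10, 0 and 20487 in KO. *Ifit3b*, its near copy on the same chromosome, had 9 and 2 counts in WT and 1, 0 and 9948 in KO. The genes share 41.1% of the 75-base stretches of *Ifit3* and 35.7% of those of *Ifit3b*, so reads of that length cannot always be assigned to 1 of them, and the split of counts between the pair is uncertain. *Usp18*, the protease that removes ISG15 and dampens the receptor, had 0 and 8691 counts in WT and 0, 0 and 14531 in KO. It was high in the same libraries as *Dhx58*, *Zbp1*, *Ifi35* and *Sp100*.

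Of the oligoadenylate synthetases, which make the messenger that activates RNase L, *Oasl2*, *Oas1a* and *Oas2* had counts in several libraries. *Oasl2* had 22 and 5382 counts in WT and 22, 644 and 1519 in KO, with 75.2 ± 105 CPM (SD, n = 2) and 15 ± 13.6 CPM (SD, n = 3) and a log2 fold change of −2.32 (standard error 4.90). *Oas2* had 3895 and 4 counts in WT and 9, 289 and 104 in KO, that is 67.6 ± 95.4 and 3.06 ± 3.03 CPM and a log2 fold change of −4.46 (standard error 5.17). In both genes 1 WT library carried the level of its genotype, and without that library the sign turned: *Oasl2* was 4.30 without WT replicate 2 and *Oas2* was 4.82 without WT replicate 1 on the log2 scale. Neither passed (edgeR adjusted p = 1 for both).

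*Oas1a* had 2491 and 7336 counts in WT and 0, 12949 and 0 in KO, and 47.6% of its 75-base stretches also occur elsewhere, most of them in *Oas1g*. *Oas3* and *Oasl1* were at or near 0, with at most 9 counts for *Oas3* and 49 for *Oasl1*, the latter in KO replicate 3 alone. *Isg20*, an exonuclease of single-stranded RNA, had 834 counts in WT replicate 2, 2 in KO replicate 1 and 0 in the other 3. *Eif2ak2*, which encodes the kinase PKR that halts translation when it binds double-stranded RNA, had 0 counts in every library, and it was the only member of the 46 without a single count.

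*Bst2*, which encodes tetherin, a protein that holds budding virus on the cell surface, was counted in WT alone (chr8:71534255-71537456). It had 141 and 5380 counts in the WT libraries and 0 in all 3 KO libraries. Its WT mean of 77.2 CPM was at least 641-fold higher than the KO libraries' floor, taken as the mean over those libraries of the CPM of 3 counts. WT replicate 2 set most of that bound, which was 40.6-fold without it. The exact permutation test gave p = 0.1 (two-sided), the smallest possible, edgeR gave p = 0.0433 and an adjusted p of 1, and DESeq2 gave an adjusted p of 0.00834. *Bst2* is also a marker of plasmacytoid dendritic cells. Of the other markers on that list, *Siglech* had 6 and 0 counts in WT and 5, 0 and 6 in KO, *Ccr9* had 14 and 259 in WT and 22, 0 and 2 in KO, *Tcf4* had 196 and 273 in WT and 79, 1704 and 4 in KO, and *Klk1* had 0 in all 5. These 4 markers summed to 7.49 and 14.8 CPM in WT and 8.38, 38.2 and 0.229 CPM in KO. Plasmacytoid dendritic cells have little F4/80, on which the cells were sorted, and their part in the level of *Bst2* was not tested.

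The IFITM proteins, which stop viruses from fusing with the cell's membranes, included the most abundant members. *Ifitm3* (chr7:141009586-141010770) had 119699 and 57293 counts in WT and 287984, 150482 and 155898 in KO. *Ifitm2* (chr7:140954837-140955987) had 44967 and 26248 counts in WT and 59631, 77224 and 83495 in KO. Of the 75-base stretches of *Ifitm2*, 42% also occur elsewhere, and *Gm45717* is the gene that shares most. That gene shares 268 exon bases with *Ifitm2* on the same strand. It had 0 and 1 counts in WT and 1, 4 and 2 in KO. *Ifitm1*, in the same cluster (chr7:140967221-140969825), was far less abundant, with 11114 and 2245 counts in WT and 20, 280 and 0 in KO. Every KO library was below both WT libraries for *Ifitm1*, at 224 ± 228 CPM (SD, n = 2) against 2.62 ± 3.26 CPM (SD, n = 3) and a log2 fold change of −6.42 (standard error 5.40; edgeR adjusted p = 1; exact permutation p = 0.1). Within KO replicate 3, *Ifitm1* had 0 counts where its neighbour *Ifitm2* had 83495.

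Among the other effectors of this kind, *Rsad2*, which encodes viperin, had 337 counts in KO replicate 3 and 1 or 0 in the rest. *Cmpk2*, its neighbour and a mitochondrial nucleotide kinase, had 22 and 0 counts in WT and 0, 180 and 1 in KO. *Mx1*, a dynamin-like GTPase that the table lists as a polymorphic pseudogene, had 29 counts in KO replicate 1 and 0 elsewhere, within the low band of that library.

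The 4 genes that were high in every library were *Ifitm3*, *Ifi27l2a*, *Ifitm2* and *Rtp4*, and together they made up 49 to 89.6% of the members' summed CPM. *Ifi27l2a*, a small mitochondrial or membrane protein (chr12:103442167-103443680), had 52719 and 31014 counts in WT and 142210, 197039 and 101944 in KO. *Rtp4*, a chaperone of receptors (chr16:23520291-23614222), had 26011 and 10118 counts in WT and 128706, 30401 and 6697 in KO. In CPM per kilobase of exon, *Ifitm3* ranked first and *Ifi27l2a* second in 4 libraries, with that order exchanged in KO replicate 2, and *Ifitm2* followed them in all 5. *Rtp4* came lower on that scale, between rank 4 and rank 11.

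Their CPM showed how far KO replicate 1 set the means. *Ifitm3* was at 4150 and 1590 CPM in WT and at 22800, 3370 and 2970 in KO, and its log2 fold change of 1.76 (standard error 1.82) became −0.14 without KO replicate 1. *Rtp4* was at 902 and 281 CPM in WT and at 10200, 681 and 128 in KO, and its 2.63 (standard error 2.49) became −0.83 without that library. For neither gene did the genotypes separate. The summed level of 8 neutrophil markers was 2510 and 643 CPM in WT and 2620, 805 and 38.2 CPM in KO, with 1 to 3 of the 8 detected per library and *S100a8* as the only one in KO replicate 1. Neutrophils, too, have little F4/80, and their part in the level of *Rtp4* was not tested. *Ifi27l2a*, at 1830 and 862 CPM in WT and 11200, 4410 and 1940 in KO, had every KO library above both WT libraries and a log2 fold change of 2.12 (standard error 2.14) that stayed between 0.98 and 2.70 with any 1 library left out. *Ifitm2*, at 1560 and 730 CPM in WT and 4710, 1730 and 1590 in KO, also did not overlap, with the nearest values at 1560 and 1590, and had a log2 fold change of 1.23 (standard error 2.41). With RLE or upper-quartile factors or with totals only, both genes overlapped between genotypes, and *Ifitm2* turned to −0.27 with upper-quartile factors. None of the 4 passed the test (edgeR adjusted p = 1 for each).

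**Figure D3:**
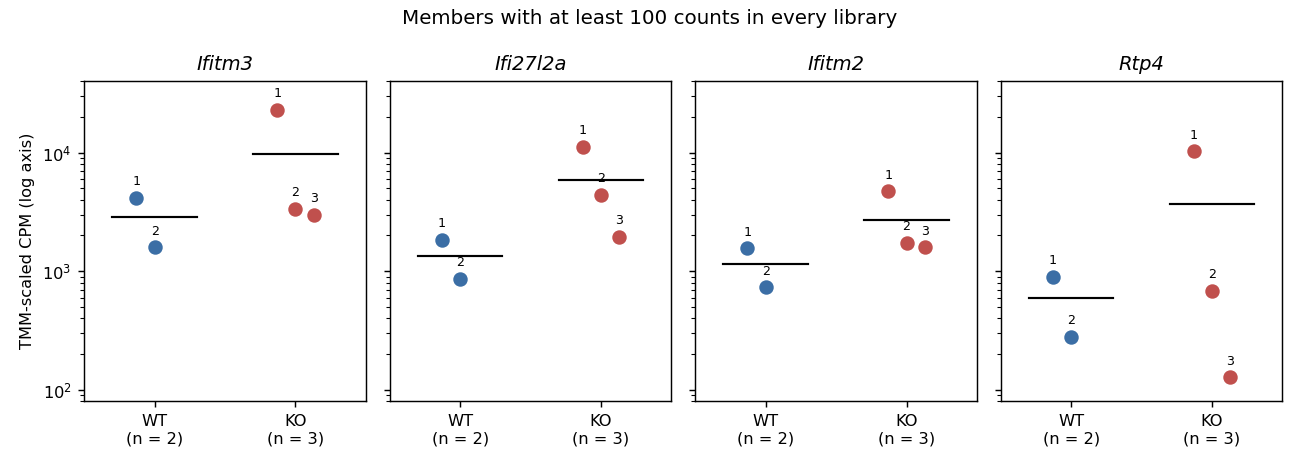
CPM scaled by TMM (log axis) of the 4 members with at least 100 counts in every library, for the WT (blue, n = 2) and KO (red, n = 3) libraries. Points are libraries, numbered by replicate, and lines are the means of each genotype. KO replicate 1 is the highest point in every panel, and the remaining KO libraries lie near WT replicate 1 for *Ifitm3*, *Ifitm2* and *Rtp4*, apart from KO replicate 3 for *Rtp4*, at 128 CPM.

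Ratios within a library do not depend on how libraries are scaled. Counts of *Ifi27l2a* were 0.44 and 0.541 times those of *Ifitm3* in WT and 0.494, 1.31 and 0.654 times in KO, so the genotypes overlapped through KO replicate 1. *Ifitm2* stood at 0.376 and 0.458 of *Ifitm3* in WT and at 0.207, 0.513 and 0.536 in KO, with KO replicate 1 below and the other KO libraries above both WT values. *Rtp4* stood at 0.217 and 0.177 of *Ifitm3* in WT and at 0.447, 0.202 and 0.043 in KO, so that KO replicate 1 was above and KO replicate 3 below both WT values.

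The guanylate-binding proteins, large GTPases that break open vacuoles holding microbes, were not detectable or at the limit. *Gbp2* had at most 3 counts in any library, *Gbp3* at most 3, *Gbp5* at most 4 and *Gbp7* at most 6. Their promoter windows all held an ISRE-like match, that of *Gbp2* being among the stretches printed above.

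The immunity-related GTPases act on the same vacuoles, and *Irgm1* and *Igtp* were both highest in KO replicate 3, *Iigp1* was high in WT replicate 2 and *Irgm2* in no library. *Irgm1* had 1458 and 61 counts in WT and 0, 0 and 5973 in KO. *Igtp*, also called Irgm3, had 0 and 83 counts in WT and 10, 0 and 5796 in KO. *Irgm2*, which overlaps *Igtp* on the same strand over 162 exon bases, had 16 and 3 counts in WT and 26, 2 and 0 in KO, and was at 0 in the library where *Igtp* was highest. *Iigp1* had 0 and 5796 counts in WT and 5, 0 and 0 in KO.

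*Gm12250*, a gene of the same family that the table lists as a processed pseudogene (chr11:58187739-58189012), had 0 counts in both WT libraries and 104585, 0 and 8454 in KO. Its p from edgeR, 0.000128, was the lowest of all genes tested, with an adjusted p of 1. The KO mean of 2810 CPM was at least 30000-fold higher than the WT floor, a bound that was worked out after its values were seen, but KO replicate 2 at 0 put that library level with WT, and without KO replicate 1 the KO mean was 80.6 CPM and the bound 860-fold. *Tgtp1*, a further family member, had 3 and 7 counts in WT and 3, 115 and 26 in KO, and its log2 fold change was 2.86 (standard error 4.54; edgeR adjusted p = 1). It did not overlap in CPM although KO replicate 1 was at the floor of 3 counts, and 77.2% of its 75-base stretches also occur elsewhere, chiefly in *Tgtp2*. With upper-quartile factors the log2 fold change of *Tgtp1* was 0.09. Under those factors, and with library totals only, its genotypes overlapped.

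*Parp14*, an ADP-ribosyltransferase (chr16:35832874-35871544), was the other gene besides *Irf9* that was high in KO replicates 2 and 3 and in no other library. It had 3 and 5 counts in WT and 8, 2022 and 1719 in KO. Its CPM was 0.122 ± 0.0247 (SD, n = 2) in WT and 26.2 ± 23 (SD, n = 3) in KO, with a log2 fold change of 7.71 (standard error 6.68; edgeR adjusted p = 1; exact permutation p = 0.2). For both genes KO replicate 1 lay above WT by a few reads, with 12 counts of *Irf9* and 8 of *Parp14*, in a library where most detected genes were in that band.

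The remaining members overlapped between genotypes. *Xaf1*, a proapoptotic factor, had 13326 and 498 counts in WT and 13, 7166 and 0 in KO. *Trim30a*, a regulator of inflammatory signalling, had 7559 and 320 counts in WT and 1, 919 and 7 in KO. Together with *Oas1a* and *Ifitm1* they formed a set of 4 genes at 100 counts or more in both WT libraries and KO replicate 2 and in no other library. Of all genes tested, 1.01% had that pattern, against 13.3% of the 30 members tested, a pattern picked out after the counts were seen. *Ifi44* had 9338 counts in KO replicate 3 and 0 in the other 4 libraries, as *Ifit1* did.

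*Sp100*, a component of nuclear bodies, had 0 and 23449 counts in WT and 4, 0 and 36085 in KO. *Ifi35*, which forms cytosolic complexes after interferon, had 0 and 16941 counts in WT and 18, 0 and 10390 in KO. With *Dhx58*, *Zbp1* and *Usp18* they made 5 genes that reached 100 counts in WT replicate 2 and KO replicate 3 only (16.7% of the 30 members tested, against 9.03% of all genes tested). Of 11 markers of T and NK cells, 7 were detected in each of WT replicate 2 and KO replicate 3 and 3 or 4 in the others, and their summed level was 3720 and 1640 CPM in those libraries and 7.39, 3 and 453 CPM in WT replicate 1, KO replicate 1 and KO replicate 2. Single markers differed: *Cd3d* had 0 and 18115 counts in WT and 0, 0 and 12795 in KO, while *Cd3g* had 196 and 19179 counts in WT and 1, 13275 and 2 in KO, *Cd4* was counted in WT replicate 2 alone and *Nkg7* in KO replicate 3 alone. Such cells lack or have little F4/80, on which the cells were sorted, and their part in the counts of the 5 genes was not tested.

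Across the members, 5 had every KO library above both WT libraries (*Irf9*, *Parp14*, *Ifi27l2a*, *Ifitm2* and *Tgtp1*) and 3 had every KO library below (*Stat2*, *Bst2* and *Ifitm1*). That is 8 of the 30 tested and of the 46. Of the 30 tested, 5 lay above and 3 below in this way, against 528 (6.68%) and 359 (4.54%) of all 7905 genes tested. Scaling changed the first group more than the second: with RLE factors 3 members were above, and with upper-quartile factors or library totals 2. *Stat2*, *Bst2* and *Ifitm1* were below under all 4 scalings, and *Oasl2* joined them with upper-quartile factors. *Irf9* and *Parp14* were above under all 4. The median of all genes itself moved with the scaling, from 0.78 with TMM to 1.24 with RLE, 0.29 with upper-quartile factors and 0.14 with totals, so a member's fold change is best read against that shift. In the same order, the median of tested members went from 0.19 to −0.03, −0.22 and −0.08. Of all genes tested, 60.9% were higher in KO with TMM, and 63.6, 54.7 and 52.2% with the others. The tested members higher in KO numbered 15 with TMM and 15, 13 and 15 with the others.

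**Figure D4:**
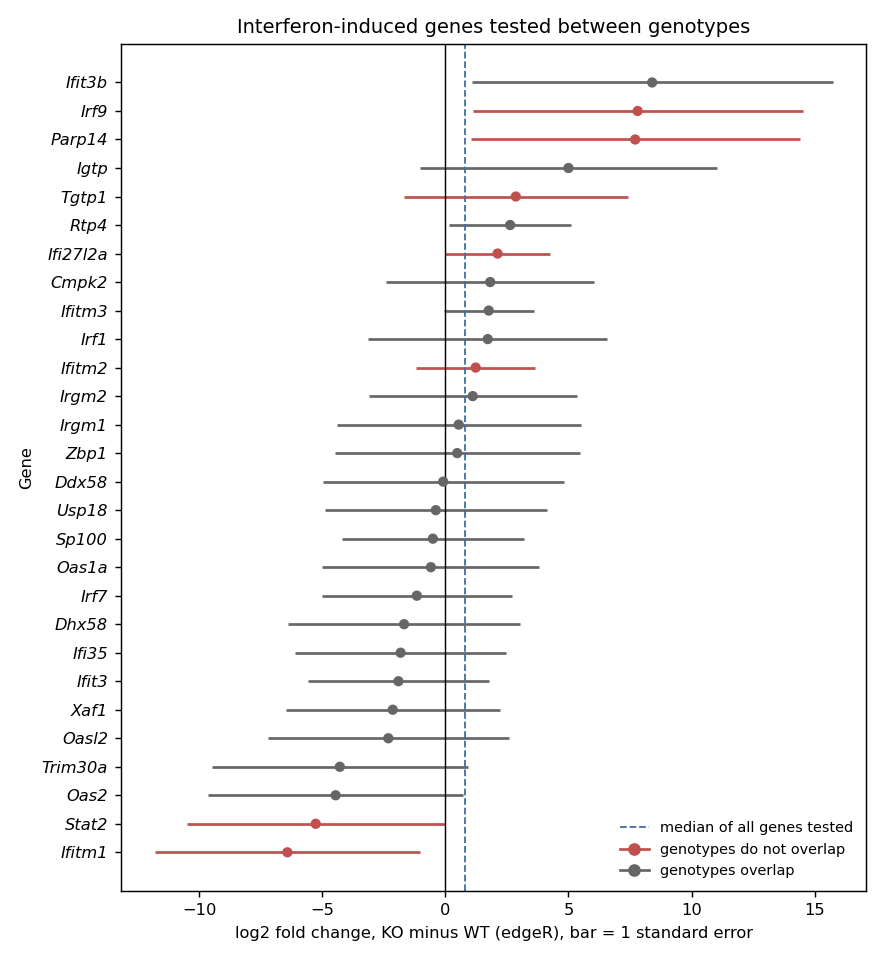
Log2 fold changes (KO minus WT) of 28 of the 30 tested members from edgeR, with bars of 1 standard error. *Bst2* and *Gm12250* are left out because 1 genotype was at 0 in all its libraries. Red marks the genes whose genotypes do not overlap, and the dashed line is the median of all genes tested, 0.78. The values run from −6.42 for *Ifitm1* to 8.40 for *Ifit3b*, and most bars cross 0.

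The rest of the interferon pathway was described from a list of 40 genes, of which 38 were in the table under those symbols. Of the 38, 22 were tested, 0 passed, 9 were higher and 13 lower in KO, and their median log2 fold change was −0.23. The ligands were not detected outside 1 library: among *Ifnb1*, *Ifna1*, *Ifna2*, *Ifna4*, *Ifna5*, *Ifne*, *Ifnk*, *Ifnl2*, *Ifnl3* and *Ifng*, the only counts were 9 of *Ifna5*, 2 of *Ifnl2* and 5 of *Ifng*, all in KO replicate 1. Transcripts of the ligands were thus at most a few reads in the sorted cells, and the level of interferon that reached the cells was not measured.

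Receptors were present unevenly. *Ifnar1* had 22 and 8 counts in WT and 35, 6478 and 0 in KO, and *Ifnar2*, its partner, had 0 and 4607 counts in WT and 14, 169 and 0 in KO. The subunits of the type I receptor were thus highest in different libraries. *Ifngr1*, the ligand-binding chain of the interferon gamma receptor, had 27 and 66148 counts in WT and 3047, 36755 and 52712 in KO, while *Ifngr2* had 15 and 6594 counts in WT and 1, 6 and 30728 in KO. The interferon lambda receptor *Ifnlr1* had 27 counts in KO replicate 1 and 0 elsewhere, and *Il10rb*, its shared chain, had 8157 and 1763 counts in WT and 2, 1 and 12664 in KO.

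Of the genes that join ISG15 to its targets, *Ube2l6* and *Herc6* were highest in the library that held *Isg15*. *Ube2l6*, *Herc6*, *Uba7*, *Irf5* and *Socs1* were singled out after their values were seen. In KO replicate 3, where *Isg15* was counted, the conjugating enzyme *Ube2l6* had 10176 counts and the ligase *Herc6* had 105, and in the other libraries *Ube2l6* had 0 and *Herc6* at most 9. *Uba7*, the activating enzyme, had 13 and 3 counts in WT and 51, 0 and 0 in KO. The genotypes did not overlap for *Irf5*, a factor of the sensing pathways, with 0 and 1 counts in WT and 6, 7954 and 10812 in KO, nor for *Socs1*, an inhibitor of the kinases, with 44 and 1805 counts in WT and 8, 0 and 1 in KO. Of the 22 pathway genes tested, 1 thus lay above and 1 below, beside 6.68% and 4.54% of all genes tested. DESeq2 called *Irf5* and no other gene of the list. That is 1 of the 15 pathway genes to which it gave an adjusted p, beside 12.2% of all such genes.

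The other genes of the list with over 3 counts in at least 4 libraries were *Tyk2*, *Stat3*, *Irf8*, *Tbk1*, *Socs3*, *Irf2*, *Ptpn6* and *Pias1*. *Irf8*, a factor of the macrophage lineage, had 32623 and 4184 counts in WT and 953, 3 and 8233 in KO. *Irf2*, which opposes *Irf1*, had 212 and 2121 counts in WT and 15, 4208 and 5463 in KO, and *Stat3* had 3649 and 1098 counts in WT and 17, 3358 and 1960 in KO. The counts of *Tyk2* ran from 0 to 8841, of *Tbk1* from 0 to 9293, of *Socs3* from 7 to 4571, of *Ptpn6* from 5 to 27443 and of *Pias1* from 0 to 2964. All 8 genes overlapped between genotypes.

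The members' summed level was 10810 and 7071 CPM in WT and 57180, 11380 and 9611 CPM in KO, the high value being that of KO replicate 1, where *Ifitm3*, *Ifi27l2a*, *Rtp4* and *Ifitm2* made up 85.5% of it. With library totals as the only scaling the sums were 15490 and 7353 CPM in WT and 29680, 14200 and 9953 CPM in KO. KO replicate 2, above WT replicate 1 with TMM, was then below it. Without *Ifitm3*, *Ifi27l2a* and *Rtp4* it was 3929 and 4335 CPM in WT and 13010, 2915 and 4567 CPM in KO, and in KO replicate 1 most of the remainder was *Gm12250*.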

How the data were processed

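Per the labels and the study's methods, the authors mapped paired-end reads of 2 WT and 3 KO libraries to GRCm38 with STAR 2.5.3a and counted them per gene with RSEM 1.3.0. The authors deposited expected counts as whole numbers for 55487 genes, without normalization or a filter. RSEM divides reads of near copies between genes, and amplified cDNA of few cells gives uneven counts.

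The 46 members, their roles, the pathway list and the markers were chosen with earlier results of these data known. The comparison used edgeR 4.0.16 under R 4.3.3 (filterByExpr, minimum count 10, TMM, quasi-likelihood test without covariates, Benjamini-Hochberg adjustment over 7905 genes, threshold 0.05). Log2 CPM used a prior count of 2. A fold against a genotype at 0 used a floor of 3 counts. All members were named, with fold changes for those without overlap between genotypes, with over 3 counts in all 5 libraries, or past the threshold. The test was also run on simulated counts, with dispersions below the 6.44 estimated here. That run does not show how the test behaves at this spread. Replicate numbers 1 and 2 occur in both genotypes, but with 2 pairs (correlations of deviations 0.237 and 0.071) they did not establish pairing. Alternatives were DESeq2 1.42.0, limma 3.58.1 (voom with sample quality weights), other scalings and filters, a threshold of 0.1, a replicate block and libraries left out. Coordinates, exon lengths and shared 75-base stretches come from GENCODE M21 (GRCm38), in which all 46 identifiers were found, 44 with their version, and promoters from RefSeq (GRCm38.p6), read with Python 3.11.15. *Iigp1* is given by counts only, and 1 gene of the pathway list is not reported here. Depth is the total per library, and fold changes of genes near the floor have no precision beyond their standard errors.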

Additional observations from a re-analysis of the deposited data

How the results depend on the processing

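The comparisons rest on 2 WT and 3 KO libraries, and what depth contributed to the spread between them was not tested. Members at 3 counts or fewer could not be told from 0. edgeR called 0 genes, 0 members and 0 pathway genes under every scaling, filter and threshold tried and with each library left out in turn. The exceptions among the alternatives were DESeq2, with 790 genes, 1 member and 1 pathway gene, limma-voom, with 234, 1 and 1, and edgeR without WT replicate 1 and KO replicate 1, with 2 genes and no member, a setting added after seeing the data. *Bst2* was the member that DESeq2 (adjusted p = 0.00834) and limma-voom (adjusted p = 0.0357) called, and edgeR's adjusted p for it was 1.

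Among the fold changes of 13 named members under all alternatives, 151 values kept their direction and their side of the threshold, 17 turned and 2, both of *Bst2*, passed it. *Ddx58* turned to 0.14 with RLE factors, 0.95 with upper-quartile factors, 0.16 with totals, 0.15 in DESeq2 and 0.25 without a filter. *Ifitm2* turned to −0.27 with upper-quartile factors, and *Oasl2* to 0.64 and *Rtp4* to −0.66 in limma-voom. *Oas2* was 5.36 without WT replicate 1 and KO replicate 1. Over the 5 settings that leave out 1 library, the ranges were −6.75 to 8.02 for *Ddx58*, −5.66 to 4.82 for *Oas2*, −3.21 to 4.30 for *Oasl2*, −0.14 to 2.40 for *Ifitm3*, and −0.83 to 3.43 for *Rtp4*. Direction held but size moved for *Stat2*, −9.10 to −4.63, and *Ifitm1*, −8.34 to −4.54. With upper-quartile factors *Stat2* was −9.78, *Ifitm1* −9.53, *Irf9* 3.32 and *Parp14* 3.57. Where WT kept 1 library, that library was assumed to vary like the others.

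For overlap, the percentages in brackets are the shares of all genes tested, not of the members. Members without overlap numbered 8 of 30 (11.2%), and 5 of 30 with totals only (11.7%). They numbered 0 of 5 with at least 10 counts in every library (16.9%). With 1 library left out they numbered 6 to 15 (21.6 to 30.7%). Without WT replicate 1 and KO replicate 1 there were 17 (59.2%). Fewer libraries are compared in these last settings. The median log2 fold change of tested members, 0.19, ranged from −1.32 to 5.85 with 1 library left out, while that of all genes tested, 0.78, ranged from 0.14 to 6.42. With a replicate block, 0 members were called, their median was −1.03, and *Ddx58* turned to 1.38. A floor of 10 counts left 17 members in KO replicate 1. With totals only, the members' summed level was 15490 and 7353 CPM in WT and 29680, 14200 and 9953 CPM in KO. Without *Ifitm3*, *Ifi27l2a* and *Rtp4* it was 3929, 4335 and 13010 CPM in WT replicates 1 and 2 and KO replicate 1. Those genes were the 3 of highest mean CPM over the libraries, a rank that for *Rtp4* rests on KO replicate 1. Apart from the fixed changes of gene set or libraries, the cause of these shifts was not tested.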
